A study of Mus musculus with 6 samples.

Results

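The cytosolic ribosomal protein genes were examined in splenic B cells with and without the tetraspanin CD37. Members were chosen by symbol, as genes whose name begins with Rpl or Rps followed by a digit, p or a, leaving out symbols marked as pseudogenes (-ps), the Rps6k kinases and Rpap genes. The rule found 63 genes of 19935 genes with a probe set of their own, 38 with large subunit names (Rpl) and 25 with small subunit names (Rps). Of these, 54 encode core proteins of the ribosome, 33 in the large and 21 in the small subunit. A further 7 are paralogs (Rpl3l, Rpl7l1, Rpl10l, Rpl32l, Rpl39l, Rps4l and Rps27l). The last members carry the name without being subunits. These are Rps19bp1, which encodes a binding partner of the Rps19 protein, and Rps23rg1, a retroposed copy of Rps23.

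RNA came from CD43-/B220+ splenic B cells, with 1 array for each of 6 mice (3 WT, 3 CD37KO) and no other treatment. The mice were C57BL/6J littermates aged 3 months per the labels, and the methods give an older age. The CD37KO mice lack Cd37, and neither the labels nor the methods restrict that loss to B cells. Cells that carry CD43 were removed with magnetic beads, staining for B220 served to assess purity, and isolations that were not fully pure were accepted.

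A ribosome is built from ribosomal RNA and a single copy of most ribosomal proteins, so the cell makes these proteins in matched amounts. The large subunit forms the peptide bonds, and the small subunit reads the messenger. Resting B cells keep few ribosomes and make many more once activated, a step driven by the growth kinase complex mTORC1 and by MYC. Messengers of ribosomal proteins are known to begin with a C followed by a run of C and T (the 5′ terminal oligopyrimidine tract), through which mTORC1 and the RNA-binding protein LARP1 control how strongly they are translated. The arrays measure the amount of messenger and not its translation.

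Windows around the annotated start are shown because this tract is the sequence feature these messengers are best known for, and most of the windows below were picked because they hold it. They come from RefSeq (GRCm38.p6), 5′ to 3′, with 10 bases before and 20 bases from the start. Capitals mark a C followed by 4 or more bases that are each C or T, beginning at the annotated start. Rps6 and Rps10 show long tracts, Rps21 and Rpl14 are the genes described first below, Rpl28 and Rplp2 lie on the chromosome of Cd37, and Rpl7l1 is a paralog without a tract.
Rps6, chr4:86857348-86857377, minus strand: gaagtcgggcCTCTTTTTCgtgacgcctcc
Rps10, chr17:27635225-27635254, minus strand: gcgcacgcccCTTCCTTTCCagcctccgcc
Rps21, chr2:180257369-180257398, plus strand: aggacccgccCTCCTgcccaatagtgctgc
Rpl14, chr9:120571507-120571536, plus strand: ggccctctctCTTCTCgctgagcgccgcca
Rpl28, chr7:4792955-4792984, plus strand: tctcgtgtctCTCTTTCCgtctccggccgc
Rplp2, chr7:141447641-141447670, plus strand: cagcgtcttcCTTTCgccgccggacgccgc
Rpl7l1, chr17:46782637-46782666, minus strand: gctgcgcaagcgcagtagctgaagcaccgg
Rps21 has a further annotated start, which has no tract.

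Among the 43 core members with a promoter entry, 9 (20.9%) had such a tract at an annotated start, against 467 (2.67%) of 17492 protein-coding genes. The tract was found in 4 of 25 large subunit genes and 5 of 18 small subunit genes. None of 68 mitochondrial ribosomal protein genes had it. A run of at least 8 bases of C or T anywhere from 10 bases before to 50 bases after the start was found in 29 core members (67.4%) and in 24.2% of protein-coding genes. A tract that begins a base away from the annotated start was not counted as one. The motif CCGGAAG, which ETS family factors are known to bind, was searched on both strands from 250 bases before to 50 after the start. It was present in 17 core members (39.5%), in 25 mitochondrial ribosomal protein genes (36.8%) and in 12.9% of protein-coding genes.

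Cd37 (Entrez Gene 12493) had log2 levels of 11.99, 11.83 and 12.08 in the WT arrays and 8.15, 8.17 and 8.17 in the CD37KO arrays, which is a change of -3.80 on the log2 scale (SE 0.076, limma adjusted p = 1.37e-07). Across all genes, 11 passed an adjusted p under 0.05. B cell markers were above background in all 6 arrays (11 of 11 measured, mean log2 level 11.54 to 11.62 in WT and 11.54 to 11.59 in CD37KO arrays). The mean of 15 neutrophil markers was 5.93 to 6.16 in WT and 6.42 to 7.69 in CD37KO arrays, and for 12 of the 15 the CD37KO level was higher before adjustment (p under 0.05). None of the 15 passed adjustment. The mean of 13 macrophage and monocyte markers was 8.70 to 9.36 in WT and 8.50 to 9.48 in CD37KO arrays, while 11 T cell markers averaged 5.73 to 5.82 and 5.68 to 5.76, with Cd3d, Cd3g, Trat1 and Zap70 below background in every array and Cd3e, Cd4, Cd5 and Il7r above it in every array. The mean of 6 erythroblast markers was 6.36 to 6.62 in WT and 6.39 to 6.71 in CD37KO arrays, that of 8 plasma cell markers 8.07 to 8.18 and 8.14 to 8.32, and that of 8 stromal and endothelial markers 6.53 to 6.70 and 6.34 to 6.46. Background was a log2 level of 5.77, taken from olfactory receptor genes.

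Messengers of the core ribosomal proteins were present in every array. As read by the brightest probe set of each gene, they lay close together in WT and CD37KO B cells. All 54 core members were above background in all 6 arrays, with mean log2 levels from 7.09 (Rpl14) to 13.12 (Rpl21). No member passed an adjusted p under 0.05 in limma (0 of 63, where 0.0552% of all genes did), and the lowest adjusted p of a member was 0.801. At an unadjusted p under 0.05, only Rps21 was higher in CD37KO (2.96% of all genes were) and no member was lower (2.99% of all genes were). Ordinary least squares called none at either threshold. The log2 differences of CD37KO from WT ran from -0.18 (Rps23rg1) to 0.33 (Rpl14), with a median of 0.027. They lay above 0 for 43 members and below 0 for 20. Over all 218 single-gene probe sets of the members, the log2 differences ran from -0.26 (Rps4l) to 0.42 (Rps21).

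These values were narrow enough to bound most members, as read by the brightest probe set kept for each gene. The bounds hold for that probe set alone, and intervals for a gene's other probe sets are not given here. The 95% interval of the difference lay within a 1.2-fold change either way for 49 of the 63 members (77.8%), and within a 1.5-fold change for 61. The same 1.2-fold bound held for 56.9% of all genes and for 67.3% of the 1195 other genes with a mean log2 level of at least 10. Rpl14 and Rps14 were the members outside the 1.5-fold bound. The median SD within groups was 0.068 for the members and 0.093 for all genes. Rpl10, which helps the large subunit mature in the cytoplasm, had the smallest (0.015) and Rpl14 the largest (0.303). Bulk RNA cannot tell fewer cells of a type from less RNA per cell.

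**Figure D1:**
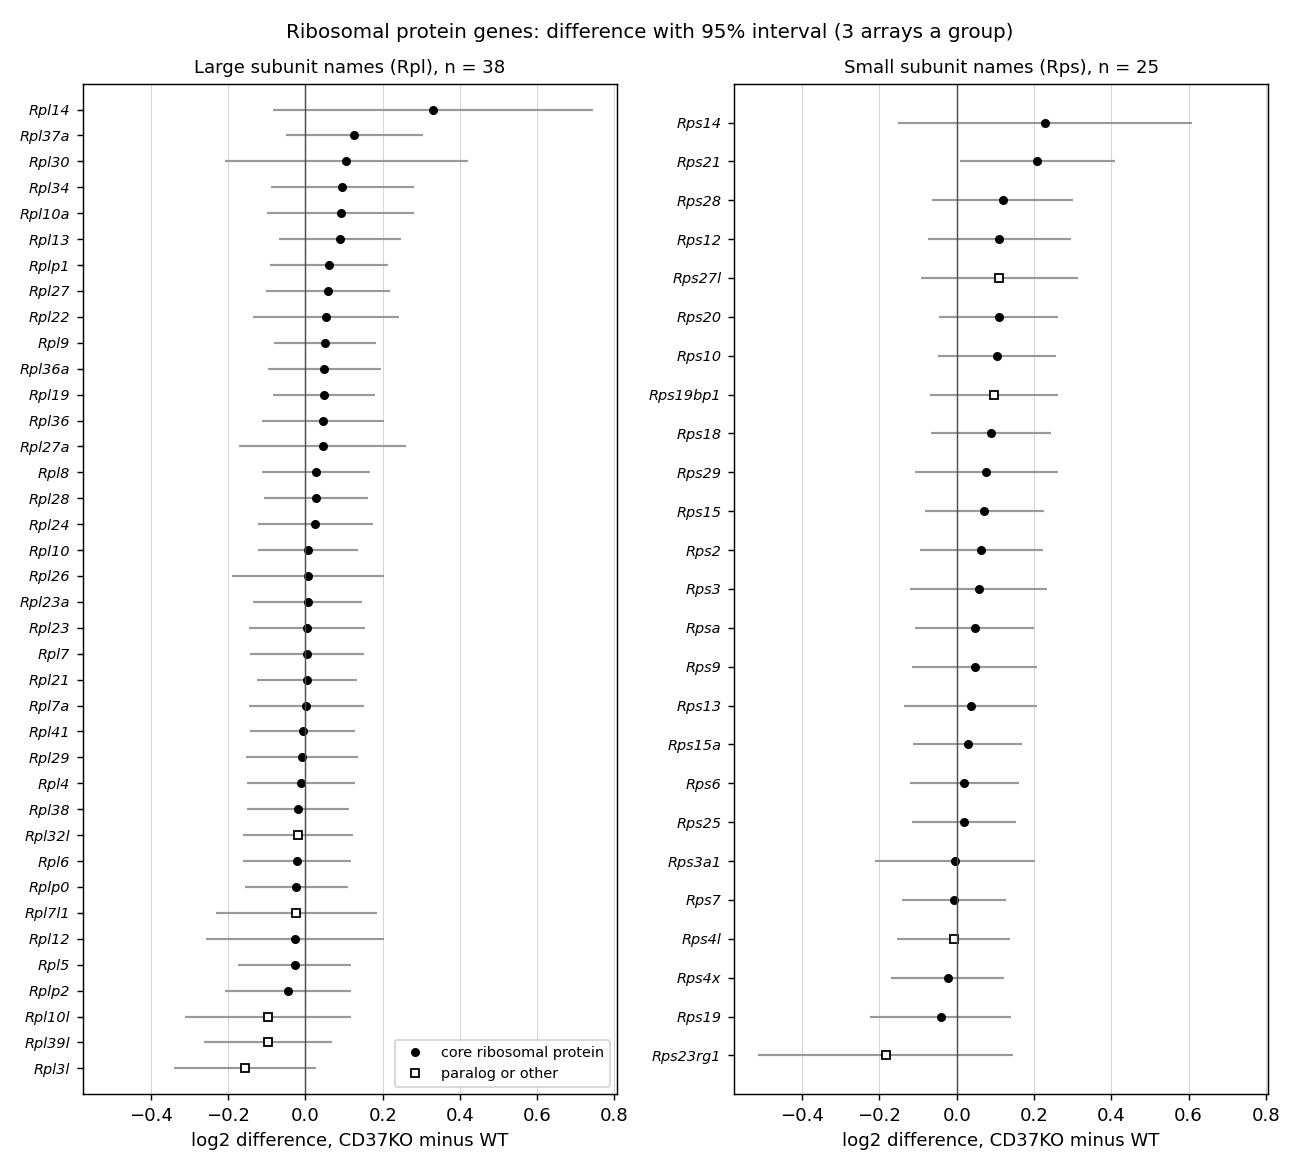
Log2 difference (CD37KO minus WT) with its 95% interval for each of the 63 genes, from 3 arrays a group. Large subunit names are on the left and small subunit names on the right, filled circles are core ribosomal proteins and open squares are paralogs and other members. The intervals include 0 for every gene except Rps21.

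Rps21, a small subunit protein (Entrez Gene 66481), had log2 levels of 9.08, 9.12 and 8.89 in WT and 9.17, 9.17 and 9.37 in CD37KO arrays. All CD37KO arrays were above all WT arrays, by little for CD37KO replicates 1 and 2. The log2 difference was 0.21 (standard error 0.088, 95% interval 0.0074 to 0.411, limma adjusted p = 0.801). The exact two-sided permutation test gave p = 0.10, the smallest that 3 arrays against 3 can give. The other probe set of Rps21 read 7.68, 7.36 and 7.33 in WT and 7.82, 7.69 and 8.11 in CD37KO, a log2 difference of 0.42, and its groups did not overlap either. Without CD37KO replicate 3, or without WT replicate 1 or 3, the unadjusted p of Rps21 was no longer under 0.05.

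In the probe sets kept, the groups also did not overlap for Rpl9 and Rpl19, both large subunit proteins. Rpl9 read 12.69, 12.68 and 12.69 in WT and 12.73, 12.70 and 12.78 in CD37KO arrays, a log2 difference of 0.050. Rpl19 read 12.54, 12.59 and 12.56 in WT and 12.59, 12.60 and 12.64 in CD37KO arrays, a log2 difference of 0.049. The SD within groups was 0.027 for both genes, and limma gave adjusted p-values of 0.867 and 0.870. Some other probe sets of both genes had overlapping groups. Over its probe sets Rpl9 differed by 0.020 to 0.084 (8 probe sets), and Rpl19 by 0.023 to 0.073 (7 probe sets). In the probe sets kept, 3 of 63 members had every CD37KO array above every WT array (4.33% of all genes did). None had every CD37KO array below (7.57% of all genes did). A probe set not kept had every CD37KO array above for Rpl13, Rpl24, Rps10, Rps12, Rps14, Rps18 and Rpsa, and every one below for Rps4l.

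In the probe sets kept, the largest log2 difference of a member was that of Rpl14, a large subunit protein. Its levels were 6.89, 7.25 and 6.65 in WT and 7.47, 6.91 and 7.40 in CD37KO arrays. The groups overlapped, since CD37KO replicate 2 lay below WT replicate 2, and the difference of 0.33 (standard error 0.181) had a limma adjusted p of 0.801. Rps14, whose loss underlies the anaemia of a human myelodysplastic syndrome, read 10.58, 10.00 and 10.64 in WT and 10.49, 10.59 and 10.82 in CD37KO. WT replicate 2 was the low array in the probe set kept, and without it the log2 difference of 0.23 became 0.026. The other probe set of Rps14 had a log2 difference of 0.14, and its groups did not overlap. The other members with the smallest unadjusted p among higher values were Rpl37a, Rps20, Rps10, Rps28 and Rps12, with log2 differences of 0.13, 0.11, 0.10, 0.12 and 0.11.

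**Figure D2:**
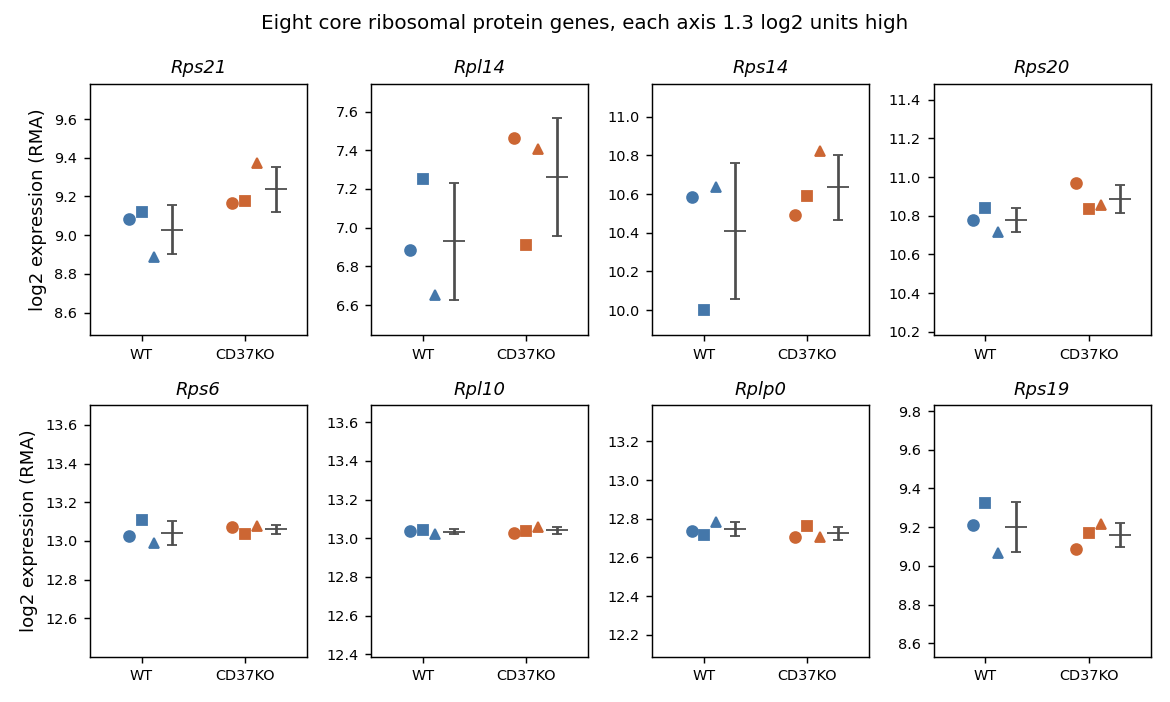
Log2 expression of 8 core ribosomal protein genes in each array, with circles, squares and triangles for replicates 1, 2 and 3, blue for WT and orange for CD37KO. Grey bars give the mean and SD of 3 arrays, and every axis spans the same log2 range. Rps21 is the gene among the 8 whose groups do not overlap, WT replicate 2 stands low in Rps14, and Rpl10 varies least.

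For genes whose proteins have known roles outside the plain structure of the ribosome, the probe sets kept showed small differences. Some other probe sets of Rplp1 and Rpsa read larger ones. The stalk, which recruits translation factors to the large subunit, is formed by the products of Rplp0, Rplp1 and Rplp2. Rplp0 read 12.74, 12.72 and 12.79 in WT and 12.71, 12.76 and 12.70 in CD37KO, a log2 difference of -0.023. Rplp1 and Rplp2 differed by 0.062 and -0.046. In Rplp1, CD37KO replicate 3 at 11.90 was above the other 5 arrays, which lay between 11.72 and 11.76. The other probe set of Rplp1 had a log2 difference of 0.24 with overlapping groups.

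Rps6, the ribosomal protein that S6 kinase phosphorylates after growth signals, read 13.02, 13.11 and 12.99 in WT and 13.07, 13.03 and 13.08 in CD37KO arrays. The groups overlapped, with a log2 difference of 0.020 and a 95% interval from -0.121 to 0.160. Rpl5, whose protein can leave the ribosome and restrain Mdm2 under ribosomal stress, read 12.35, 12.20 and 12.26 against 12.25, 12.23 and 12.24, a log2 difference of -0.028. Rpl22, a large subunit protein needed for lymphocyte development, differed by 0.053 and overlapped between groups. Rpsa, which is also known as a laminin receptor, differed by 0.047 with overlap. Its other probe sets differed by 0.037 to 0.184, and the groups did not overlap in the one that differed by 0.12. Rps19, mutated in Diamond-Blackfan anaemia, read 9.21, 9.32 and 9.07 in WT and 9.09, 9.17 and 9.21 in CD37KO, a log2 difference of -0.041.

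Paralogs and other copies held the lowest values of the set. Rpl3l, a paralog of Rpl3 known from striated muscle, read 4.99, 4.86 and 5.01 in WT and 4.74, 4.93 and 4.72 in CD37KO arrays. It stayed below background in all 6, as did Rpl10l and Rpl39l, both known from the testis. Their log2 differences of -0.16, -0.096 and -0.098 are differences below background. Rps23rg1 was above background in 5 arrays and differed by -0.18, with levels of 5.90, 6.26 and 5.88 in WT and 5.92, 6.03 and 5.54 in CD37KO.

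The other paralogs were above background in all arrays. Rps27l, a stress-inducible relative of Rps27, read 8.64, 8.50 and 8.58 in WT and 8.84, 8.53 and 8.68 in CD37KO, a log2 difference of 0.11 with overlapping groups. Rpl7l1, which acts in ribosome assembly, read 9.87, 9.88 and 9.89 in WT and 9.95, 9.97 and 9.65 in CD37KO. Here CD37KO replicate 3 was the lowest array and the other CD37KO arrays the highest. Rpl32l differed by -0.020. Rps4l, annotated as a transcribed pseudogene, differed by -0.0074, and its parent Rps4x by -0.024. The second probe set of Rps4l read 5.80, 5.88 and 5.76 in WT and 5.52, 5.65 and 5.49 in CD37KO, a log2 difference of -0.26 whose groups did not overlap, near background. Rpl7 and Rpl10, parents of Rpl7l1 and Rpl10l, differed by 0.0035 and 0.0068. Rps19bp1 differed by 0.096, with levels from 7.42 to 7.50 in WT and from 7.45 to 7.66 in CD37KO.

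**Figure D3:**
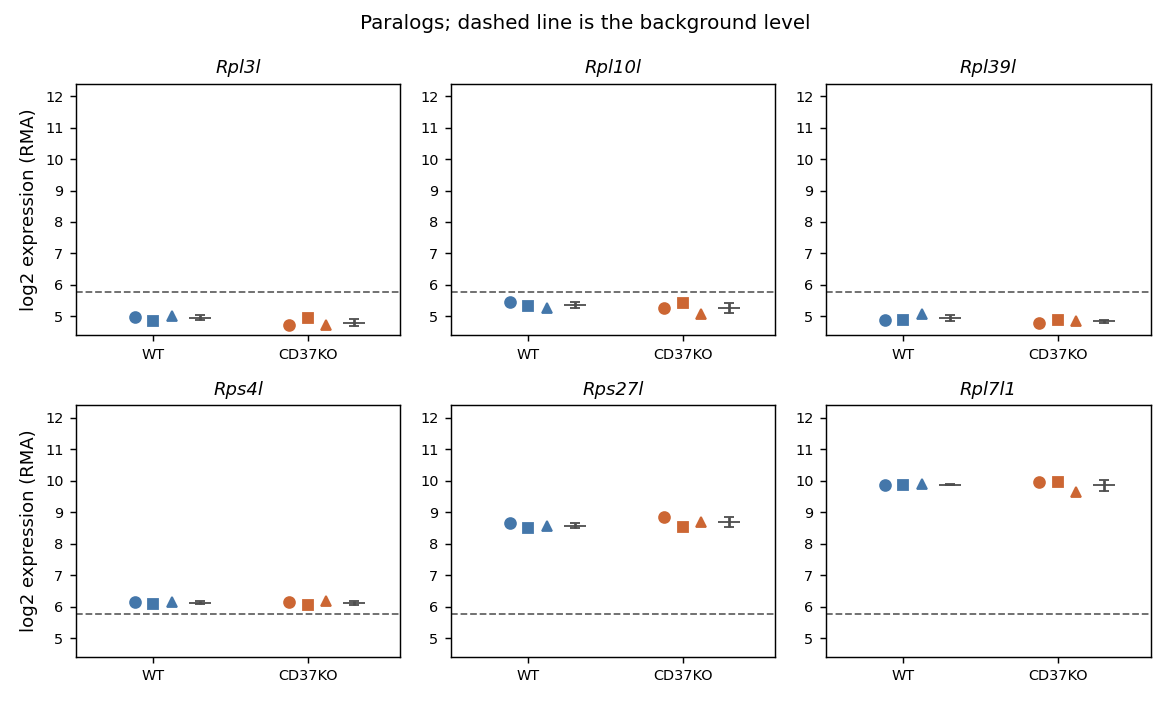
Log2 expression of 6 paralogs in each array, with circles, squares and triangles for replicates 1, 2 and 3, and grey bars for the mean and SD of 3 arrays. Background (5.77) is drawn as a dashed line. Rpl3l, Rpl10l and Rpl39l lie below it in every array, and Rps4l, Rps27l and Rpl7l1 above it.

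Members with small subunit names had a higher median difference than those with large subunit names, by a small amount. The gap between the medians was 0.051 on the log2 scale, and 0.030 to 0.057 when each array was left out in turn. The median log2 difference was 0.0059 for the 38 large subunit names (24 above 0 and 14 below) and 0.057 for the 25 small subunit names (19 above 0 and 6 below). Among core members the medians were 0.026 (n = 33) and 0.057 (n = 21), with 24 of 33 and 17 of 21 above 0. No test was made of this gap, because genes measured on the same arrays are not replicates. For comparison, the median was 0.017 for the 9874 genes above background in all arrays, with 57.0% above 0. It was -0.019 for all genes, with 41.8% above 0, and -0.013 for the other genes with a mean log2 level of at least 10, with 44.2% above 0. Averaging each gene's probe sets gave medians of 0.045 for all members and 0.014 for large subunit names, and array weights gave 0.016 and -0.0031.

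CD37KO replicate 3 held the highest value of 31 of the 63 members, 17 of the 38 large and 14 of the 25 small subunit names. Across all genes, 14.3% had their highest value in that array, and 11.7% of the other genes with a mean log2 level of at least 10. Relative to each gene's own mean, the members' median deviation was 0.050 in CD37KO replicate 3 and between -0.019 and 0.012 in the other 5 arrays. Without that array the median difference was 0.0073 for all members, -0.0019 for large subunit names and 0.028 for small subunit names. The large subunit median moved further when CD37KO replicate 1 was left out, to 0.020, and the median of all members was then 0.042. Without WT replicate 1, WT replicate 3 or CD37KO replicate 2 the large subunit median was 0.018, 0.016 and 0.016. In CD37KO replicates 1 to 3 the mean of the neutrophil markers was 7.69, 6.42 and 7.03, and that of the macrophage markers 9.47, 8.50 and 9.48. The erythroblast markers averaged 6.71, 6.39 and 6.71 in these arrays and the plasma cell markers 8.30, 8.14 and 8.32. Each of these lists was higher in CD37KO replicates 1 and 3 than in replicate 2. The stromal and endothelial markers went the other way, at 6.40, 6.46 and 6.34. The members' median deviation was -0.011, 0.012 and 0.050 in the same arrays, and so was not high in replicate 1. The part of other cells in the members' values was not tested.

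**Figure D4:**
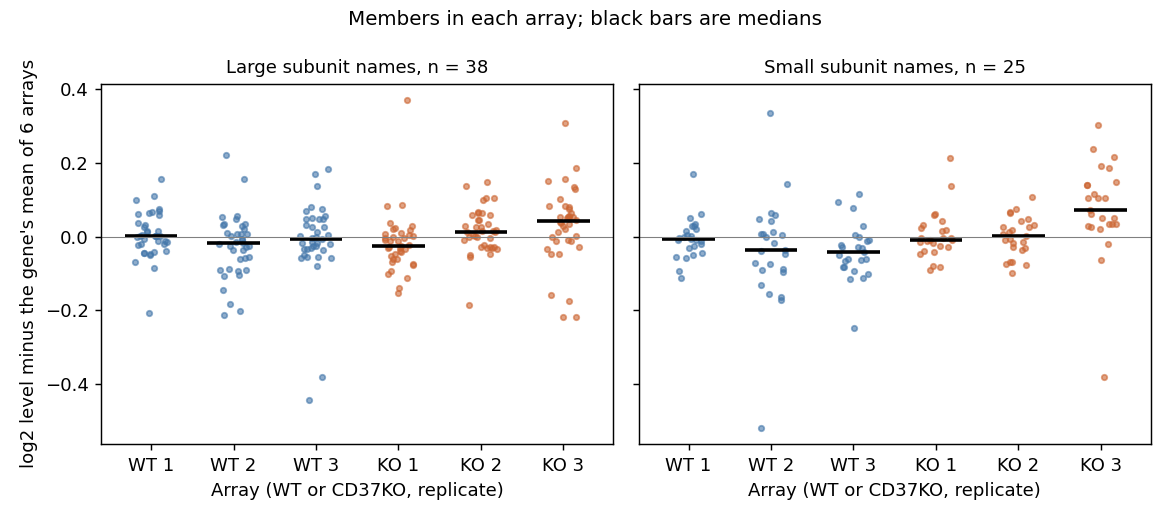
Each gene's log2 level minus its mean over 6 arrays, for large subunit names (left) and small subunit names (right), by array. Points are genes and black bars are medians. The medians of CD37KO replicate 3 are the highest of the 6 arrays in both panels, at 0.042 and 0.072.

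Many ribosomal protein genes have several probe sets. These were read on the same 6 arrays, so their signs are not independent of each other. The members had 218 single-gene probe sets, and 38 members had several with distinct values. The difference ranged over a gene's probe sets by a median of 0.083 on the log2 scale and by 0.253 at most (Rps4l). All probe sets of a gene had the same sign for 27 of the 38 genes, above 0 for 25 and below 0 for Rps4l and Rps4x. The matching share among other genes with several probe sets was not computed. Rps12 differed by 0.078 to 0.189 over 8 probe sets, and Rps18 by 0.070 to 0.126 over 7. Rpl10 stayed between -0.011 and 0.011 over 6 probe sets, and Rpl21 between -0.024 and 0.034 over 9. Ribosomal protein genes have many near-identical processed copies in the mouse genome, so a probe set can also read RNA of a copy, and these values are uncertain to that extent.

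No member was measured near Cd37 on chromosome 7. The 150 measured genes on each side of Cd37 held none, although 8 of these 300 genes were called after adjustment. Rpl13a lies 10 annotated coding genes before Cd37, and Rpl18 lies 33 after it. The annotation used here gave neither of them a probe set of its own, so they were not analysed here. The 8 members on chromosome 7 lay farther away, from Rps3 at 337 and Rps19 at 342 measured genes to Rplp2 at 1006. Rps3, a small subunit protein with a known role in DNA repair, read 10.59, 10.42 and 10.67 in WT and 10.57, 10.65 and 10.62 in CD37KO. The groups overlapped, with a log2 difference of 0.057. The log2 differences of Rpl28, Rpl27a, Rps9, Rps13 and Rps15a were 0.027, 0.044, 0.046, 0.036 and 0.028. The median of the 8 was 0.032, against 0.026 for the other 55 members, and their lowest adjusted p in limma was 0.886.

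**Figure D5:**
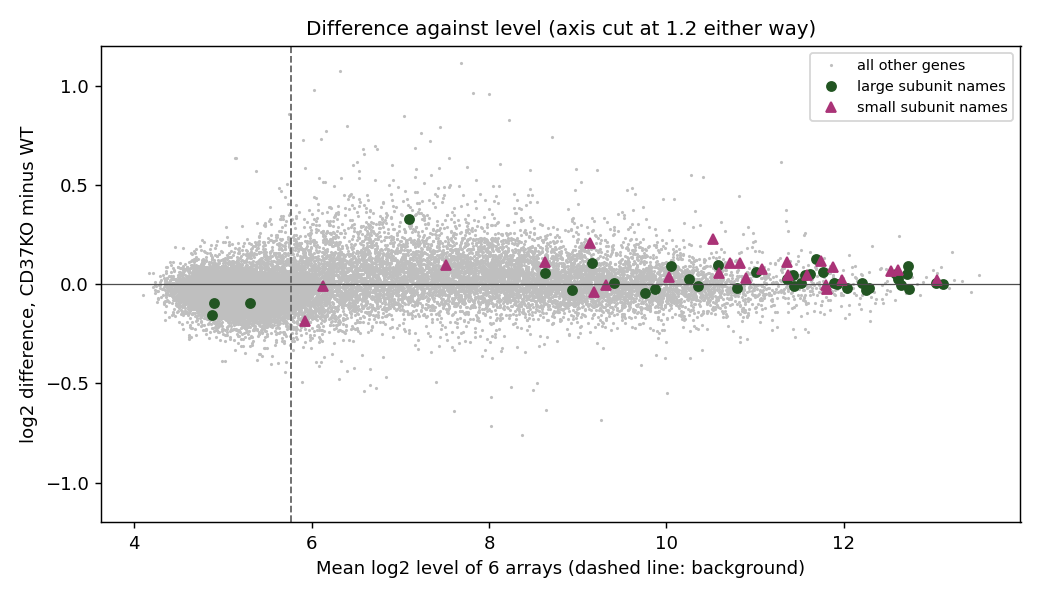
Log2 difference (CD37KO minus WT) against the mean log2 level of 6 arrays, with large subunit names as circles, small subunit names as triangles and all other genes as small dots. Background (5.77) is drawn as a dashed line, and Cd37 and 8 other genes lie beyond the vertical axis. The members sit close to 0, 59 of them above background in all arrays.

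Core members were also set side by side by whether a tract was counted at the annotated start. The median log2 difference was 0.028 for the 9 core members with the tract (from -0.046 to 0.330) and 0.040 for the 34 where none was counted (from -0.041 to 0.126). It was 0.020 for the 17 core members with CCGGAAG and 0.041 for the 26 without.

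Other genes of translation and ribosome synthesis were counted in the same fit, and none passed an adjusted p under 0.05. Before adjustment, 2.96% of all genes were higher and 2.99% lower, and 57.0% of the genes above background lay above 0, against which the following counts are to be read. Fau, which encodes a small subunit protein outside the naming pattern, had a log2 difference of 0.054 (standard error 0.065). Of 86 measured ribosome biogenesis factors, 57 were above 0 and 29 below, with a median of 0.047, and 4 had an unadjusted p under 0.05, all with the higher level in CD37KO. These were Polr1d, a subunit of RNA polymerases I and III (log2 difference 0.42, standard error 0.148), Ddx18, Noc4l and Rrp1b. Of 36 initiation factors, 23 were above 0, and Eif2b4 (0.16) passed the unadjusted threshold. Of 11 genes listed under elongation and termination, which include genes besides the factors themselves, 7 were above 0. Eef1e1 (0.26) and Eef2k (0.21), the kinase that restrains elongation, passed the unadjusted threshold with higher levels in CD37KO. Polr1d overlapped between groups, with levels of 7.77, 7.66 and 7.79 in WT and 8.29, 7.78 and 8.41 in CD37KO.

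Among 24 measured genes of mTORC1, S6 kinase and MYC control, 9 were above 0 and 15 below, with a median of -0.042. Mxd1, an antagonist of MYC, and Mlst8, a subunit of mTORC1, had higher levels in CD37KO before adjustment (0.25 and 0.17). Akt1s1, an inhibitory subunit of mTORC1, and Mxd4, a further MYC antagonist, were lower (-0.29 and -0.25). Of 16 other genes whose messengers are known to carry the tract, 11 were above 0 and none passed the unadjusted threshold in limma or the adjusted one, with a median of 0.020. The 77 mitochondrial ribosomal protein genes had a median of 0.065, with 59 above 0. Before adjustment Mrpl3, Mrpl57 and Mrps22 passed as higher (0.24, 0.26 and 0.20) and Mrps16 as lower (-0.23).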

How the data were processed

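The values deposited for the 6 samples (3 WT, 3 CD37KO) are log2 levels of probe sets on an Affymetrix mouse gene array, processed by the authors. The submitters' processing notes name RMA and the build mm8. The sources used here state no RMA version, and raw scans were not used here. RMA compresses low signals, so differences near background are understated.

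Of 35361 probe sets, 21780 named a single gene, 1605 named several and 11976 were unnamed in the annotation used. Symbols were updated through Entrez Gene IDs (91 probe sets were not found). For each of 19935 genes the brightest probe set by its 6-array mean was kept, with no filter on dim probe sets. A background level of log2 5.77 was set at percentile 95 among mean levels of 1015 olfactory receptor genes. The contrast of CD37KO against WT was fitted in limma (version 3.58.1, R 4.3.3), using two-sided moderated tests from lmFit and eBayes. Benjamini-Hochberg adjustment ran across the 19935 genes at a threshold of 0.05. The same fit was also run on simulated data. The labels number the samples as biological replicates, and the number of arrays limits the precision. Of 89 coding genes with such symbols in the GRCm38.p6 gene table, 27 had no probe set of their own and were not analysed here. That table served for names and gene order, and the promoter table of the same assembly for sequences (51 members matched).

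The members and lists were chosen with earlier results of these data known. Genes named in the text are Cd37, members near it, up to 8 members with the smallest unadjusted p in each direction, paralogs with their parents, Rps19bp1, members with named roles, up to 4 genes of each list, and members whose groups did not overlap, which were added after their values were seen. Members that mark the edge of a described range and the members on chromosome 7 were also named. So were members whose groups did not overlap in a probe set that was not kept. Alternatives were a replicate block, leaving out each array, core members only, averaging the probe sets of a gene, a filter on background, array weights, ordinary least squares, robust eBayes with a trend, median centring and a further quantile normalization.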

Additional observations from a re-analysis of the deposited data

How the results depend on the processing

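No member passed the adjusted threshold in any of the 15 alternatives, where the lowest adjusted p of a member was 0.194 (Rpl14, array weights) and 3 to 19 of all genes passed. Of 38 named members, 22 kept the sign of their difference throughout. At an unadjusted p under 0.05, where 1 member was higher and 0 lower, another quantile normalization, only genes above background and ordinary least squares gave 0 higher. Averaging each gene's probe sets gave 2 higher (Rps21, Rps10) and 1 lower (Rps4l), array weights gave 2 higher (Rps21, Rpl14) and 2 lower (Rpl3l, Rpl10l), and leaving out each array gave 0 to 2 higher and 0 to 1 lower. The small minus large median was 0.051, and became 0.069 with array weights, 0.031 for core members alone and 0.030 to 0.057 without each array. Signs turned for Rpl10 (-0.034), Rps6 (-0.010), Rpl21 (-0.039) and Rpl28 (-0.0041) after quantile normalization, for Rplp0 (0.0086) with the mean of probe sets, and for Rpl22 (-0.030), Rpl7 (-0.017), Rpl27a (-0.012) and Rps15a (-0.0091) with array weights. Without each array in turn, differences that changed sign ranged from -0.0027 to 0.014 (Rpl10), -0.0020 to 0.123 (Rpl22), -0.064 to 0.014 (Rpl5), -0.023 to 0.042 (Rpl7), -0.079 to 0.079 (Rpl7l1), -0.107 to 0.020 (Rps19), -0.014 to 0.111 (Rps3), -0.034 to 0.029 (Rps4l), -0.045 to 0.012 (Rps4x), -0.0065 to 0.054 (Rps6), -0.0060 to 0.018 (Rpl21), -0.045 to 0.102 (Rpl27a), -0.0099 to 0.092 (Rps13) and -0.00018 to 0.060 (Rps15a). The cause was not tested. Same-numbered WT and CD37KO samples had deviations that correlated at 0.238, 0.0068 and -0.139, and differently numbered ones at -0.367 to 0.312. With 3 arrays a group, these values cannot tell whether same-numbered samples share more than a number. The replicate block gave 0 members higher at an unadjusted p under 0.05 and left the medians as they were, since a balanced block does not move them. Signal over background limits Rpl3l, Rpl10l, Rpl39l and Rps23rg1, whose differences have no firm size.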
